A study of Homo sapiens with 16 samples.

Results

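The 2 AHNAK proteins, 3 annexins (ANXA1, ANXA2 and ANXA3) and 5 S100 proteins (S100A4, S100A6, S100A10, S100A11 and S100P) were followed at the mRNA level in parental and Sorafenib-resistant hepatocellular carcinoma (HCC) cells. All 10 genes were found in the table of 26258 genes, and all 10 passed the filter on low values. AHNAK2 passed it only through its resistant libraries, being under 1 CPM in all others. The 10 genes were chosen by their measured levels in resistant against parental cells, so their differences in that contrast are given as a description and without a test. Huh7 and Hep3B are established human HCC cell lines. From each line, resistant cells had been raised either in increasing concentrations (IR) or in a constantly high concentration (CR) of Sorafenib, a multi-kinase inhibitor used in advanced HCC. The labels give Sorafenib at 7 µM for the IR and CR libraries of both lines, whereas the culture protocol names that maintenance dose for the Huh7 cells alone. Parental cells and cells labelled DMSO carried the label untreated, and what was done to the DMSO cells is not given in the sources used here. Each of the 8 groups held 2 libraries. The study's methods speak of biological triplicates, which the 2 replicates of the labels do not match, and whether the 2 libraries of a group came from separate cultures is not given in the sources used here, so that p-values measure only the spread between these libraries. Resistant cells were labelled with the drug and parental cells without it, and therefore resistance and drug exposure cannot be told apart.

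AHNAK and AHNAK2 are giant scaffold proteins beneath the plasma membrane. Annexins bind membrane phospholipids when calcium rises, and S100 proteins are small calcium-binding proteins with EF hands that dock onto partner proteins. S100A10 and ANXA2 form a heterotetramer that holds AHNAK at the membrane and serves as a plasminogen receptor at the cell surface, while S100A11 pairs with ANXA1. These complexes are known for membrane repair, vesicle traffic and cell migration.

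Depth ranged from 46613302 reads (Huh7-IR replicate 2) to 76860251 reads (Hep3B DMSO replicate 1). An approximate upper limit for a count of 0 was set at 3 reads, which corresponded to at most 0.0644 CPM (reads of a gene scaled to the library total). This covers counting error only. On GRCh37, S100A4 (chr1:153516089-153522612), S100A6 (chr1:153507075-153508720), S100A10 (chr1:151955391-151966335) and S100A11 (chr1:152004982-152020383) lie on chromosome 1, whereas S100P (chr4:6695605-6698897) and ANXA3 (chr4:79472901-79531605) lie on chromosome 4. The remaining members are AHNAK (chr11:62201014-62323707), AHNAK2 (chr14:105403581-105444711), ANXA1 (chr9:75766781-75785309) and ANXA2 (chr15:60639333-60695082). All 12 hepatocyte markers were detected at 1 CPM or more in the parental libraries of both lines. Their summed level was 10836 to 16447 CPM in Huh7 parental, 116 to 474 CPM in Huh7-IR and 1377 to 2805 CPM in Huh7-CR cells, and 20232 to 25285, 3830.4 to 11154 and 2326 to 3626 CPM in the corresponding Hep3B cells. The sum of 10 fibroblast markers was 1457 to 1546 CPM in Huh7 parental and 2987 to 3955 CPM in the resistant Huh7 cells, and 697 to 791 CPM in Hep3B parental and 1072 to 2149.7 CPM in the resistant Hep3B cells. VIM made up most of it, and the fibroblast marker THY1 did not exceed 0.0569 CPM in any library. Further genes of this list changed, called at a limma adjusted p under 0.05 and a log2 change of 0.58 or more in size. Of the 7 tested, 6 were higher and 1 (LUM) was lower under either regimen of Huh7. For Hep3B, 2 were higher and 1 (PDGFRB) lower under IR, and 2 higher and 0 lower under CR. The shares of all genes in Hep3B were 15.7% higher and 11.4% lower under IR, and 20.0% and 12.3% under CR. By the same rule, 11 (IR) and 10 (CR) of the 12 hepatocyte markers were lower in Huh7. In Hep3B, 6 were lower and 1 higher under IR, and 9 lower under CR. COL1A1 rose by log2 differences of 5.04 (IR) and 4.21 (CR) in Huh7, and of 4.69 and 5.69 in Hep3B. In Hep3B, COL1A2, COL3A1, ACTA2 and LUM were not called under either regimen. The 7 leukocyte markers summed to at most 115 CPM and the 5 endothelial markers to at most 6.36 CPM in a library, and the 5 bile duct markers to 235 to 980 CPM. The part of these shifts in the values below was not tested, and in bulk RNA fewer cells of a type and less RNA per cell cannot be told apart.

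To show the sequence before the genes that carry the comparisons, the 250 bases upstream of the RefSeq start sites on GRCh38.p14 were read and searched on both strands for the AP-1 element (TGACTCA or TGAGTCA) and for the core letters bound by HIF (ACGTG or GCGTG), and on the gene's strand for a TATA box (TATAAA). Capitals mark these letters in the sequences. AHNAK2 has 2 start sites in RefSeq, at chr14:104978375-104978624, minus strand, and at chr14:104970508-104970757, minus strand, and both are printed because AHNAK2 showed the widest range of levels. ANXA2 (chr15:60397987-60398236, minus strand) and S100A10 (chr1:151993860-151994109, minus strand) form 1 complex, and S100P (chr4:6693628-6693877, plus strand) was the only member that limma called in the DMSO cells.
AHNAK2 start site 1: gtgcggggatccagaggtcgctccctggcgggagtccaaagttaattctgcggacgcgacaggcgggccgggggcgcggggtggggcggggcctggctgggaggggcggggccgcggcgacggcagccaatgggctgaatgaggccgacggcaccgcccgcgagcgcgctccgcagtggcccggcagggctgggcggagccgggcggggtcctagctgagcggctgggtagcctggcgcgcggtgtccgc
AHNAK2 start site 2: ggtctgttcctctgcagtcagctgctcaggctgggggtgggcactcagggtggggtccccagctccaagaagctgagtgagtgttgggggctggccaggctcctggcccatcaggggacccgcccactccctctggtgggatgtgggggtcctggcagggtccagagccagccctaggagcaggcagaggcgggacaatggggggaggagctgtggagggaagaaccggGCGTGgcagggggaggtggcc
ANXA2: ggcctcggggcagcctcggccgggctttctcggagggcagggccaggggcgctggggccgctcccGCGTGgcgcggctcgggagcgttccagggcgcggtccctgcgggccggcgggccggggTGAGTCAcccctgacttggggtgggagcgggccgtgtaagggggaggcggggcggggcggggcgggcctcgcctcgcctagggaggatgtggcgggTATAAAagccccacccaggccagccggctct
S100A10: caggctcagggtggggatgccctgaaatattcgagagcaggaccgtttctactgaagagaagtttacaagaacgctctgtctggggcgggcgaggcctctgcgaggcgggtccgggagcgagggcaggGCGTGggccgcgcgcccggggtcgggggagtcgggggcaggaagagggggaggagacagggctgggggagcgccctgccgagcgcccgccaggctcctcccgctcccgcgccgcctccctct
S100P: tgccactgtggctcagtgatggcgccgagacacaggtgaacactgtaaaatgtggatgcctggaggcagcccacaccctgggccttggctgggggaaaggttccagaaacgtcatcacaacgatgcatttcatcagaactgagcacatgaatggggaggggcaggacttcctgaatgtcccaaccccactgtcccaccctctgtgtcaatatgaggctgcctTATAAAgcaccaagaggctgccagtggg

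Among the 11 start sites of the members, the AP-1 letters were found only before ANXA2, at position -127, as in 4.2% of all 35116 promoters of the same length. The HIF letters occurred before AHNAK2 (start site 2, position -21), ANXA2 (-185), S100A6, S100A10 (-122) and S100A11, against 43.2% of all promoters. A TATA box stood before ANXA1 (-31), ANXA2 (-31), S100A4 (-31) and S100P (-28), against 6.8% of all promoters. A match is a description of these letters and not a binding site.

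First, the levels of the scaffold proteins were examined. AHNAK2 was nearly silent in parental cells, with 0.116 and 0.0268 CPM (8 and 2 reads) in Huh7 and 0.175 and 0.324 CPM (13 and 23 reads) in Hep3B cells. It reached 427 and 251 CPM in Huh7-IR and 122 and 97.7 CPM in Huh7-CR cells. The Hep3B libraries reached 28.6 and 6.42 CPM under IR and 101 and 62.0 CPM under CR. Every resistant library of a line lay above every parental library of that line. On the log2(CPM + 1) scale, which understates the change of a gene with so few reads in parental cells, the differences from parental cells were 8.26 ± 0.49 (SE) under IR and 6.69 ± 0.49 under CR in Huh7, and 3.57 ± 0.49 and 6.01 ± 0.49 in Hep3B cells. The related scaffold AHNAK was abundant throughout. It measured 1229.9 and 1197 CPM in Huh7 parental, 2145 and 1938 CPM in Huh7-IR and 2413 and 2980.1 CPM in Huh7-CR cells. In Hep3B cells, AHNAK was lower, at 277 and 258 CPM in parental, 406 and 308 CPM in IR and 463 and 459 CPM in CR cells. Its log2 differences from parental cells were 0.75 ± 0.16, 1.14 ± 0.16, 0.40 ± 0.16 and 0.78 ± 0.16 in the same order. Thus, both scaffold genes were higher in all 8 resistant libraries than in the parental libraries of their line, AHNAK within a narrow range and AHNAK2 from near 0. Per transcript length (MANE Select transcript), AHNAK2 remained at 0.0335 to 0.203 times the AHNAK level in the Huh7 resistant libraries and at 0.0213 to 0.224 times in those of Hep3B.

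**Figure D1:**
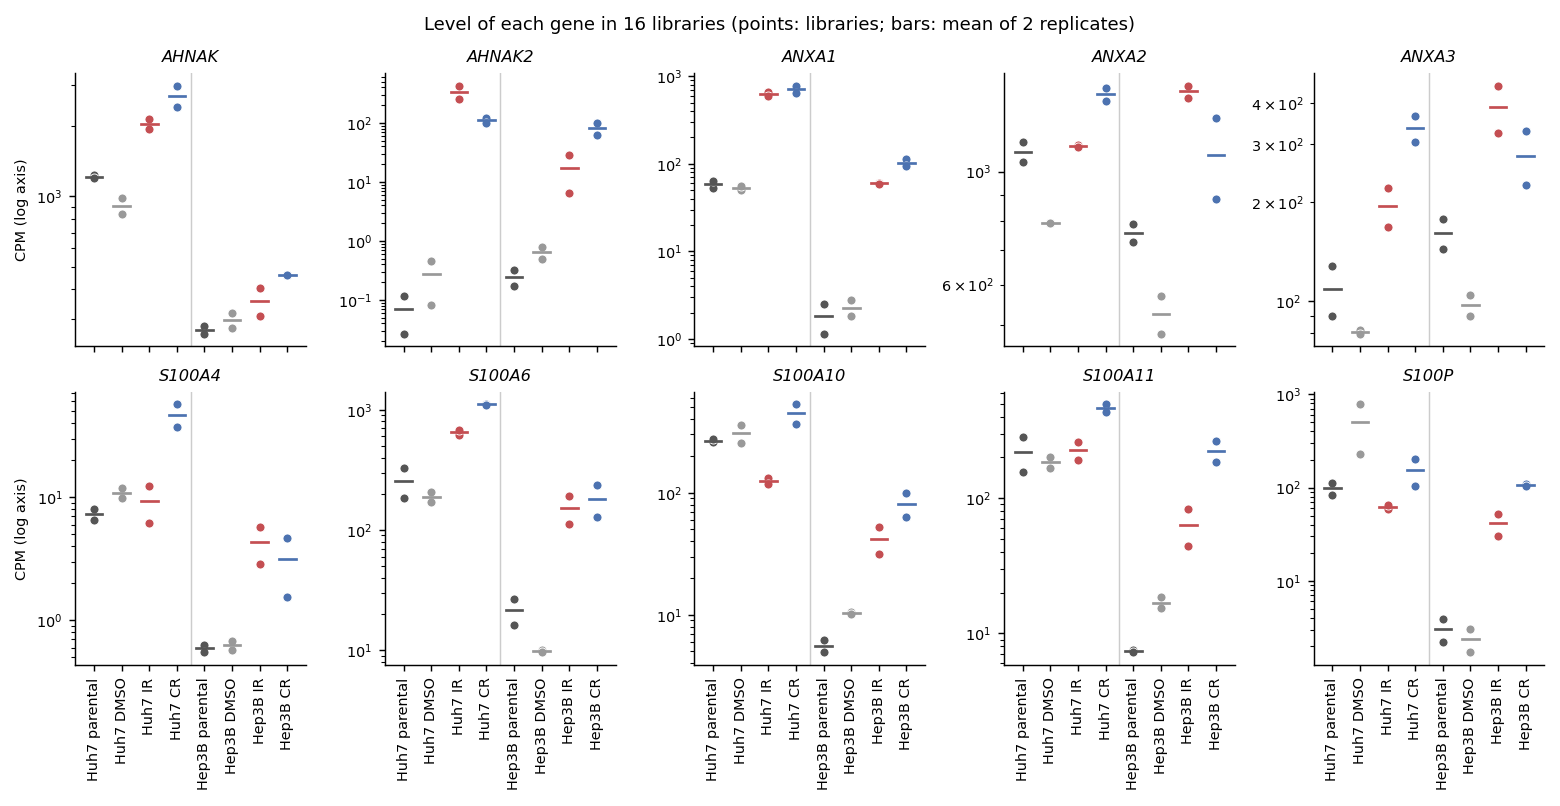
Level of the 10 genes in CPM (log axis, 1 panel per gene) in the 16 libraries, by group. Points are libraries and bars are means of 2 replicates; the AHNAK2 libraries range from 0.0268 to 427 CPM, whereas ANXA2 stays between 480.3 and 1476 CPM.

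Next, the annexins were compared. ANXA1, an annexin with anti-inflammatory roles, was at 53.3 and 63.4 CPM in Huh7 parental, 659 and 596 CPM in Huh7-IR and 779 and 638 CPM in Huh7-CR cells. In Hep3B cells it was at 1.14 and 2.50 CPM in parental, 60.1 and 59.2 CPM in IR and 112 and 94.1 CPM in CR cells. The resistant libraries stood well above the parental ones in both lines, with log2 differences under IR and CR of 3.41 ± 0.22 and 3.58 ± 0.22 (SE) in Huh7 and of 4.47 ± 0.22 and 5.24 ± 0.22 in Hep3B cells. Hep3B-IR cells thereby reached the ANXA1 level of Huh7 parental cells, and their libraries lay within the range of those. ANXA2, the partner of S100A10, was among the most abundant members in every group. It measured 1144 and 1045 CPM in Huh7 parental, 1129 and 1119 CPM in Huh7-IR and 1462 and 1375 CPM in Huh7-CR cells. In Hep3B cells ANXA2 was at 787 and 729 CPM in parental, 1476 and 1399 CPM in IR and 1273 and 884 CPM in CR cells. Huh7-IR overlapped with parental cells, whereas the other resistant groups lay above theirs, by log2 differences of 0.38 ± 0.16 in Huh7-CR cells and of 0.92 ± 0.16 (IR) and 0.48 ± 0.16 (CR) in Hep3B cells. The value of ANXA2 is uncertain because its processed pseudogene ANXA2P2 is a near-identical copy that could take part of its reads. ANXA2P2 stood at 34.9% to 37.1% of the ANXA2 CPM in all 16 libraries. ANXA3 was at 127 and 89.8 CPM in Huh7 parental, 221 and 168 CPM in IR and 366 and 304 CPM in CR cells. In Hep3B cells it was at 178 and 144 CPM in parental, 452 and 325 CPM in IR and 328 and 224 CPM in CR cells. No resistant library overlapped with the parental ones of its line. CR lay above IR in Huh7, whereas the IR and CR libraries of Hep3B overlapped.

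The S100 genes were then described, beginning with S100A10. S100A10 holds ANXA2 in the heterotetramer. It was at 260.0 and 273 CPM in Huh7 parental, 132 and 118 CPM in Huh7-IR and 368 and 530.1 CPM in Huh7-CR cells. In Hep3B cells it was at 4.91 and 6.16 CPM in parental, 52.2 and 31.6 CPM in IR and 99.7 and 63.2 CPM in CR cells. Huh7-IR was the only resistant group in which S100A10 lay below the parental level, with a log2 difference of -1.09 ± 0.27 (SE) against 0.73 ± 0.27 in Huh7-CR cells and 2.68 ± 0.27 (IR) and 3.63 ± 0.27 (CR) in Hep3B cells. S100A11, the partner of ANXA1, showed 283 and 156 CPM in Huh7 parental, 258 and 193 CPM in IR and 494 and 433 CPM in CR cells. In Hep3B cells S100A11 was at 7.51 and 7.23 CPM in parental, 82.5 and 43.9 CPM in IR and 264 and 186 CPM in CR cells. Huh7-IR overlapped with its parental libraries, and Hep3B-CR came within the range of Huh7 parental cells.

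S100A6, also known as calcyclin, was at 329 and 184 CPM in Huh7 parental, 611 and 682 CPM in IR and 1109 and 1102 CPM in CR cells. In Hep3B cells it was at 26.4 and 16.3 CPM in parental, 193 and 112 CPM in IR and 236 and 127 CPM in CR cells. All resistant libraries lay above the parental ones, with log2 differences under IR and CR of 1.39 ± 0.34 and 2.16 ± 0.34 (SE) in Huh7 and of 2.76 ± 0.34 and 3.0 ± 0.34 in Hep3B cells. S100A4, which is known as a marker of motile mesenchymal cells, had the lowest CPM of the S100 members in every group. Huh7 parental cells had 8.03 and 6.51 CPM, Huh7-IR cells 12.3 and 6.22 CPM and Huh7-CR cells 37.1 and 56.9 CPM of S100A4. In Hep3B cells, the S100A4 values were 0.633 and 0.549 CPM in parental, 5.75 and 2.86 CPM in IR and 4.69 and 1.56 CPM in CR cells. Huh7-IR overlapped with parental cells in S100A4, and the other resistant groups did not. S100P, a placental S100 protein found in several carcinomas, was at 82.7 and 113 CPM in Huh7 parental, 59.1 and 64.7 CPM in IR and 203 and 103 CPM in CR cells. In Hep3B cells S100P was at 2.22 and 3.91 CPM in parental, 30.3 and 52.7 CPM in IR and 109 and 104 CPM in CR cells. S100P was thus lower in Huh7-IR than in Huh7 parental cells and overlapped with them in Huh7-CR, whereas both Hep3B resistant groups lay above their parental libraries, by log2 differences of 3.37 ± 0.49 and 4.75 ± 0.49.

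**Figure D2:**
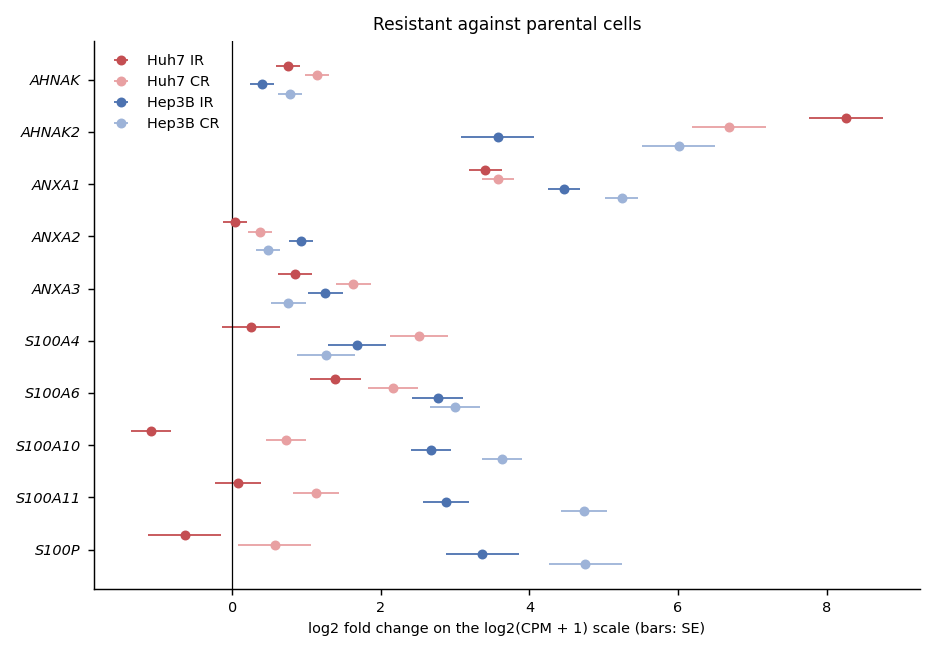
Log2 fold change of each gene in IR and CR against parental cells of the same line (x axis, log2(CPM + 1) scale), with SE bars from the fit. AHNAK2 extends to 8.26 in Huh7-IR, and S100A10 and S100P of Huh7-IR lie below 0.

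Across the 10 genes, 5 lay above both parental libraries in both Huh7-IR libraries, 2 below (S100A10 and S100P) and 3 overlapped. In Huh7-CR cells 9 lay above and S100P overlapped, and all 10 lay above in both resistant groups of Hep3B. The share of all genes whose libraries did not overlap was not computed, so these counts only describe the members. The median log2 change of the members was 0.50, 1.39, 2.72 and 3.31 in the same order, against 0.19, 0.07, 0.06 and 0.11 over all tested genes. The members were chosen by this contrast, so the gap between these medians reflects that choice and is not a result. With TMM factors, the median of all genes in Huh7-IR moved to 0.04. With DMSO in place of parental cells as the reference, the difference of S100P in Huh7-CR cells turned from 0.57 to -1.54 and that of S100A4 in Huh7-IR cells from 0.25 to -0.26, and S100P in Huh7-IR cells moved from -0.64 to -2.75. The ANXA2 differences under IR and CR moved to 0.50 and 0.84 in Huh7 and to 1.46 and 1.02 in Hep3B cells.

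IR cells were then compared with CR cells of each line, a contrast that did not serve to choose the members, although the libraries did. AHNAK2 also passed the filter only through these libraries. The fit shares 1 estimate of spread per gene over all 8 groups. For AHNAK2 this includes the near-silent parental and DMSO libraries, where the log2(CPM + 1) scale narrows the spread. The errors of AHNAK2 in IR against CR may therefore be too small. The paper describes a single IR and a single CR line from each parental line. The regimen and other differences between these derived lines can therefore not be told apart. A gene was called where limma gave an adjusted p under 0.05 and a log2 change of 0.58 or more in size. In Huh7 cells 4 members were lower in IR than in CR, 1 was higher, and 5 were not called, against 5.43% of all 15019 tested genes lower and 8.23% higher. S100A10 was lower by a log2 difference of -1.82 ± 0.27 (SE, limma adjusted p = 0.00178), and S100A4 by -2.26 ± 0.39 (adjusted p = 0.0042). The S100A10 call held under all 14 alternatives, and that of S100A4 was lost only without Huh7-CR replicate 2 (adjusted p = 0.053). S100A11 (-1.05 ± 0.31, adjusted p = 0.0399) and ANXA3 (-0.79 ± 0.23, adjusted p = 0.0408) were also lower in Huh7-IR cells. S100A11 lost its call without any 1 of the 4 libraries (adjusted p = 0.0535 to 0.167), and ANXA3 without Huh7-IR replicate 2 (0.153), Huh7-CR replicate 1 (0.197) or Huh7-CR replicate 2 (0.106). Without a filter both calls were lost as well (0.0772 for S100A11 and 0.0738 for ANXA3), as they were in a separate fit of Huh7 (0.0942 and 0.097). AHNAK2 went the other way and was higher in Huh7-IR by 1.58 ± 0.49 (adjusted p = 0.0488). This call was lost under 8 of 14 alternatives, edgeR and DESeq2 included, and without Huh7-IR replicate 1 (0.208), Huh7-CR replicate 1 (0.122) or Huh7-CR replicate 2 (0.218), with adjusted p between 0.0283 and 0.218 overall. AHNAK, ANXA1, ANXA2, S100A6 and S100P had differences of -1.21 to -0.17 that limma did not call. Of these, DESeq2 called S100A6 (-0.90, adjusted p = 0.0364) and S100P (-1.43, adjusted p = 0.0247) lower in Huh7-IR cells.

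In Hep3B cells 4 members were lower in IR than in CR and none was higher, against 6.41% of all genes lower and 5.33% higher. S100A11 was lower by -1.86 ± 0.31 (SE, limma adjusted p = 0.00239), a call that held under all 14 alternatives. AHNAK2 was lower by -2.44 ± 0.49 (adjusted p = 0.00741), and lost its call without Hep3B-IR replicate 2 (0.0502) or Hep3B-CR replicate 1 (0.0705). S100A10 was lower by -0.95 ± 0.27 (adjusted p = 0.0372) and lost its call without Hep3B-IR replicate 2 (0.311) or Hep3B-CR replicate 1 (0.252), without a filter (0.0725) and with edgeR (0.0531). ANXA1 was lower by -0.77 ± 0.22 (adjusted p = 0.0365), and this call was lost under 10 of 14 alternatives. It was lost without any 1 of the 4 libraries (0.0938 to 0.19), with a pseudocount of 0.25 CPM (0.074), without a filter (0.0631), with TMM factors (0.0571) or quantile normalization (0.061), and with edgeR (0.115) and DESeq2 (0.0682). ANXA2 was not called, at 0.44 ± 0.16 (adjusted p = 0.099), and was called higher in IR only without Hep3B-CR replicate 1 (0.70, adjusted p = 0.0285). S100P was not called by limma, and was called lower in Hep3B-IR cells in a separate fit of Hep3B (-1.39, adjusted p = 0.0101) and by DESeq2 (-1.29, adjusted p = 0.0499). By limma, S100A10 and S100A11 were the members called lower in IR than in CR in both lines, and DESeq2 added S100P.

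**Figure D3:**
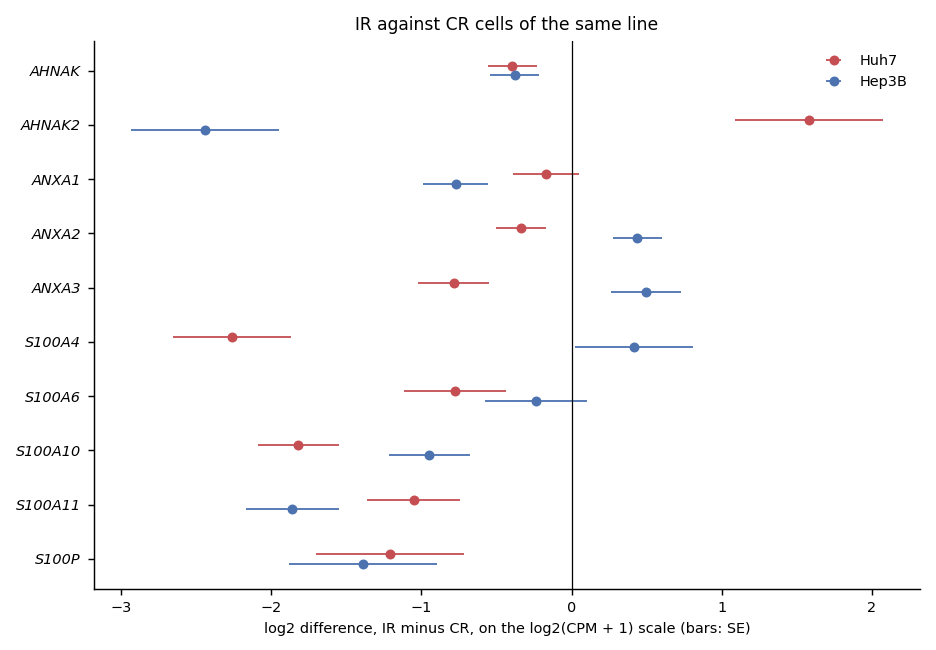
Log2 difference of IR minus CR for each gene (x axis, log2(CPM + 1) scale) in Huh7 and Hep3B cells, with SE bars. S100A10 and S100A11 lie below 0 in both lines, whereas AHNAK2 is at 1.58 in Huh7 and -2.44 in Hep3B.

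The difference between the lines was tested directly as an interaction. It was called for 4 of the 10 members, 1 higher in Huh7 (15.9% of all genes) and 3 lower (9.57%). For AHNAK2 the IR minus CR difference of Huh7 exceeded that of Hep3B by 4.01 ± 0.70 (SE, limma adjusted p = 0.00243). AHNAK2 was highest in the IR cells of Huh7 and in the CR cells of Hep3B. It passed the filter only through these resistant libraries, which also served to choose it. The SE of AHNAK2 includes the narrow spread of the near-silent parental and DMSO libraries and may be too small. The 2 Hep3B-IR libraries were at 28.6 and 6.42 CPM. S100A4 differed by -2.68 ± 0.56 (adjusted p = 0.00585), being called lower in Huh7-IR than in Huh7-CR and at 0.42 ± 0.39 in Hep3B. Both calls held under all 17 alternatives. ANXA3 differed by -1.28 ± 0.33 (adjusted p = 0.0157), and lost its call without Huh7-CR replicate 1 (0.0561), Hep3B-IR replicate 1 (0.0584) or Hep3B-CR replicate 2 (0.0678). ANXA2 differed by -0.77 ± 0.23 (adjusted p = 0.0298) and lost its call under 8 of 17 alternatives, which were no filter, quantile normalization and the omission of any 1 of 6 of the 8 libraries (0.0532 to 0.115). The other 6 members had differences between -0.87 and 0.81 that limma did not call, and DESeq2 called that of S100A10 (-1.07, adjusted p = 0.035). Over all genes, the median of this interaction was 0.14, and 0.01 with TMM factors.

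The ratio of S100A10 to ANXA2 was then followed, per length of the MANE Select transcripts, as a description of the 2 mRNAs of the complex. It was 0.526 and 0.606 in Huh7 parental, 0.271 and 0.244 in Huh7-IR and 0.583 and 0.893 in Huh7-CR cells. In Hep3B cells the ratio was 0.0145 and 0.0196 in parental, 0.0819 and 0.0524 in IR and 0.181 and 0.166 in CR cells. The ratio was lower in every Hep3B library than in every Huh7 library, and the IR and CR libraries did not overlap in either line. The DMSO libraries had ratios of 0.741 and 1.05 in Huh7 and 0.0427 and 0.0493 in Hep3B cells. The choice of transcript length scales every ratio of a pair by the same factor and does not move the order of the libraries. For S100A11 to ANXA1, the Huh7 ratio was 13.2 and 6.13 in parental, 0.975 and 0.805 in IR and 1.58 and 1.69 in CR cells, and the Hep3B ratio was 16.3 and 7.19 in parental, 3.42 and 1.85 in IR and 5.87 and 4.93 in CR cells. This ratio was lower in every resistant library than in every parental library of its line.

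Per length of the MANE Select transcript, ANXA2 ranked 1 or 2 among the members in all 8 groups (1 to 7 with the length of merged exons), and AHNAK2 ranked last in all groups but Huh7-IR, where S100A4 did. In Huh7-CR cells S100A6 was the highest, at 2547 CPM per kilobase, ahead of ANXA2 at 913. ANXA2 led in all 4 Hep3B groups. The order of the groups within a gene also differed between members. AHNAK was higher in each Huh7 group than in each Hep3B group, and its neighbours in that order did not overlap, except for Hep3B-IR with Hep3B DMSO and for Hep3B DMSO with Hep3B parental cells. For ANXA3, Hep3B-IR, Huh7-CR and Hep3B-CR stood at the top, and each overlapped with the next.

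The starting levels of the lines were compared in parental cells, whose libraries also entered the contrasts that chose the members. Huh7 cells had higher levels of 7 members and lower levels of none, against 18.9% of all genes higher and 23.7% lower. The largest log2 differences were those of S100A10 (5.36 ± 0.27, SE, limma adjusted p = 1.42e-08), S100A11 (4.66 ± 0.31, adjusted p = 1.53e-07) and S100P (4.62 ± 0.49, adjusted p = 9.06e-06). ANXA1 (4.43 ± 0.22), S100A6 (3.50 ± 0.34), S100A4 (2.37 ± 0.39) and AHNAK (2.18 ± 0.16) followed, with adjusted p of at most 0.000312. All 7 calls held under all 13 alternatives. ANXA2 stayed below the fold threshold at 0.53 ± 0.16 (adjusted p = 0.0176), and was called higher with TMM factors, with edgeR and DESeq2, and without Huh7 parental replicate 2 (0.59) or Hep3B parental replicate 1 (0.58). ANXA3 was the only member with a difference near the threshold in the other direction, at -0.58 ± 0.23 (adjusted p = 0.057), and was called lower without Huh7 parental replicate 1 (-0.83, adjusted p = 0.0315). AHNAK2 was near 0 in both lines.

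DMSO cells were next compared with parental cells of the same line. In Huh7 cells S100P was the only member called by limma. It measured 227 and 783 CPM in DMSO against 82.7 and 113 CPM in parental cells, a log2 difference of 2.11 ± 0.49 (SE, limma adjusted p = 0.0337). Both DMSO libraries lay above the parental ones and above every IR and CR library, but differed widely from each other. The call was lost without Huh7 DMSO replicate 2 (1.22, adjusted p = 0.289), Huh7 parental replicate 1 (0.176) or Huh7 parental replicate 2 (0.105), without a filter (0.0735) and in a separate fit of Huh7 (0.176). Over all genes, 3.46% were called higher and 1.37% lower. In Hep3B cells limma called 0 of the 10 members, against 1.07% of all genes higher and 0.513% lower. Of the 10, edgeR called 0 and DESeq2 3, and 4 passed at an unadjusted p under 0.05. The shares of all genes under these 3 rules are not given here, so their counts cannot be set against the limma shares. DESeq2 called S100A11 higher (1.17, adjusted p = 0.0083) and S100A6 (-1.14, 0.0219) and ANXA3 (-0.75, 0.0396) lower in Hep3B DMSO cells. S100A11 was also called in a separate fit of Hep3B (0.0437). AHNAK2 stayed under 1 CPM in all DMSO libraries, at 0.0828 and 0.460 CPM in Huh7 and 0.494 and 0.781 CPM in Hep3B cells. The summed hepatocyte markers of the DMSO libraries were 23183 to 28763 CPM in Huh7 and 37202 to 44249 CPM in Hep3B cells, above the parental ranges, and their part in the S100P value was not tested.

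To place the members among their relatives, the 10 other annexins, 15 other S100 genes and 23 partners and receptors of these families were tested against parental cells. Of these 48 genes, 34 passed the filter. In Huh7-IR cells 14 were higher and 5 lower, where 31.1% of all genes were called higher and 17.8% lower. In Huh7-CR cells 13 were higher and 4 lower, against 20.9% and 13.6% of all genes. For Hep3B, 11 were higher and 2 lower under IR (15.7% and 11.4% of all genes), and 11 were higher and 3 lower under CR (20.0% and 12.3%). The separate counts of the families are a description to be read against the same shares. The median log2 changes of the 34 genes were 0.38, 0.52, 0.26 and 0.27, against 0.19, 0.07, 0.06 and 0.11 over all genes. Among the annexins of Huh7 cells, 4 rose and 3 fell under IR, and 2 rose and 2 fell under CR. For Hep3B, 5 annexins rose under IR, and 3 rose and 1 fell under CR. Of the 15 S100 genes 7 were tested, with 2 higher and 1 lower in each Huh7 comparison and 1 higher in each Hep3B comparison. Of the partners, 17 were tested, with 8, 9, 5 and 7 higher and 1, 1, 2 and 2 lower.

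By limma, ANXA8, ANXA8L1, DYSF, MYOF and S100A2 were called higher in all 4 comparisons. The calls of MYOF and DYSF held under all 15 alternatives. MYOF (myoferlin) and DYSF (dysferlin) are ferlins that work in calcium-dependent membrane repair. MYOF rose from 269 and 146 CPM in Huh7 parental to 987 and 1440.4 CPM in IR and 911 and 886 CPM in CR cells, and from 32.9 and 18.4 CPM in Hep3B parental to 282 and 169 CPM in IR and 288 and 261 CPM in CR cells. Its log2 differences were 2.58, 2.18, 3.10 and 3.42 (SE 0.33 each), with limma adjusted p from 1.39e-05 to 0.000255. DYSF reached 129 and 55.3 CPM in Huh7-IR and 49.7 and 43.6 CPM in Hep3B-CR cells from 6.56 and 3.90 CPM and from 1.09 and 0.675 CPM, with log2 differences of 3.82 ± 0.35 and 4.67 ± 0.35 (adjusted p = 3.48e-06 and 2.39e-06). ANXA8 and ANXA8L1 are near-identical copies whose reads could be split between them. They rose in Huh7-CR cells by 2.74 ± 0.25 and 2.78 ± 0.32 (adjusted p = 5.94e-06 and 3.42e-05). In Huh7-IR cells both calls were lost without Huh7 parental replicate 1 (adjusted p = 0.0755 and 0.133), and that of ANXA8L1 also without Huh7-IR replicate 2 (0.082). Both were also lost with quantile normalization (0.171 for ANXA8 and 0.0847 for ANXA8L1) and with edgeR (0.06 and 0.0747), and ANXA8L1 with TMM factors (0.0525) and DESeq2 (0.064). S100A2 stayed low, at most 7.68 CPM, and rose by 1.37 to 1.82 (adjusted p = 0.00294 to 0.0167). Its parental libraries were all under 1 CPM, so S100A2 passed the filter only through resistant libraries and Huh7 DMSO replicate 2 (1.81 CPM). It lost its call in Hep3B-IR cells without any 1 of the 4 libraries (0.0513 to 0.102) or with a pseudocount of 4 CPM (0.066), and in Huh7-CR cells without Huh7 parental replicate 1 (0.0597), Huh7 parental replicate 2 (0.0621) or Huh7-CR replicate 1 (0.0891), with DMSO cells as the reference (0.0691) and in a separate fit of Huh7 (0.0504).

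Other relatives were called in fewer comparisons or in both directions. PLAT, the tissue plasminogen activator, rose in Huh7-IR cells to 74.5 and 10.6 CPM and in Huh7-CR cells to 12.9 and 12.6 CPM from 0.102 and 0.0134 CPM (7 and 1 reads) in parental cells. Its log2 differences were 4.81 ± 0.57 (limma adjusted p = 2.39e-05) and 3.70 ± 0.57 (0.000305), while Hep3B libraries stayed at or below 1.10 CPM. The Huh7 parental libraries were under the filter of 1 CPM, so PLAT passed it through other libraries, the resistant ones of Huh7 among them. ANXA5, the annexin used to stain apoptotic cells, fell in Huh7 by 1.23 ± 0.16 under IR (adjusted p = 5.2e-05) and by 0.66 ± 0.16 under CR (0.00661). In Hep3B cells it rose by 0.80 ± 0.16 under IR (0.00256) and by 0.68 ± 0.16 under CR (0.0058). The fall in Huh7-CR cells was not called without Huh7-CR replicate 2 (-0.52, adjusted p = 0.0654), with DMSO cells as the reference (-0.41, 0.0598) or with quantile normalization (-0.57, 0.0143). The rise in Hep3B-CR cells was not called without Hep3B-CR replicate 1 (0.53, 0.0648), and stayed below the fold threshold with TMM factors (0.57), edgeR (0.57) and DESeq2 (0.55). The difference between the lines was not tested.

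ANXA13, an annexin of epithelial apical membranes, rose in Hep3B-IR cells from 5.75 and 1.48 CPM to 47.9 and 87.4 CPM (4.01 ± 0.67, limma adjusted p = 0.000804). In Huh7-IR cells it fell from 21.5 and 31.2 CPM to 1.59 and 11.3 CPM (-2.25 ± 0.67, adjusted p = 0.0127), a call lost without Huh7 parental replicate 2 (0.08) or Huh7-IR replicate 1 (0.156). ANXA9 fell by 1.74 ± 0.28 (IR) and 1.99 ± 0.28 (CR) in Huh7 (adjusted p = 0.000255 and 0.000177) and by 1.04 ± 0.28 in Hep3B-CR cells (0.0128), the last of them not called without Hep3B parental replicate 2 (0.0949) or Hep3B-CR replicate 1 (0.0766), with a pseudocount of 0.25 CPM (0.0645) or with edgeR (0.0755). CACYBP, the calcyclin-binding partner of S100A6, was lower in both Hep3B resistant groups, at 78.3 and 90.1 CPM in IR and 95.2 and 98.9 CPM in CR against 218 and 235 CPM in parental cells (-1.42 ± 0.21 and -1.21 ± 0.21, adjusted p = 0.000335 and 0.000794). CACNB2, a calcium channel subunit, was also lower in both Hep3B groups by 0.84 ± 0.17 and 0.87 ± 0.17 (adjusted p = 0.00269 and 0.00187), at levels of at most 2.15 CPM. With a pseudocount of 4 CPM these differences were -0.36 in both groups and below the fold threshold. S100A9 was at 0.437 and 1.41 CPM in Huh7 parental cells and at no more than 1 read in each Huh7-IR and Huh7-CR library, and its call in Huh7-CR cells (adjusted p = 0.028) was lost without Huh7 parental replicate 2 (0.259), Huh7-CR replicate 1 (0.105) or Huh7-CR replicate 2 (0.0948), without a filter (0.0541), in a separate fit of Huh7 (0.116) and with a pseudocount of 4 CPM (0.209).

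Finally, genes outside these lists with the most similar levels were sought by Pearson's correlation of log2(CPM + 1) over the 16 libraries, as a description, since the libraries share lines and regimens. For AHNAK these were TRIM38 (r = 0.985), ZNF462 (0.984) and COMMD6 (0.982), and for AHNAK2 CARS1 (0.984), MLKL (0.984) and QPCT (0.982). For S100A10 they were ADAMTS12 (0.965), CREBL2 (0.963) and GOLM1 (0.963). S100A11 ranked 12 among 15018 genes by likeness to S100A10 (r = 0.946), whereas its complex partner ANXA2 ranked 2804 (r = 0.57). For ANXA2, its pseudogene ANXA2P2 ranked 1 (r = 0.999), and PRSS23 (0.937), YWHAZ (0.936) and DYNC1I2 (0.935) were the nearest genes outside the lists. AHNAK and AHNAK2 had r = 0.51. Among all 45 pairs of members, r ran from 0.0677 for ANXA3 with S100A10 to 0.962 for ANXA1 with S100A6.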

How the data were processed

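Poly(A)-enriched RNA of 16 libraries was sequenced by the authors, with 2 replicates in each of 8 groups, while the paper's methods state biological triplicates. Per the labels and methods, the authors aligned reads with STAR to hg19 and counted them per RefSeq gene. The deposited table holds CPM for 26258 genes, of which 26111 were matched to a symbol. Its values were whole multiples of 1 read, so that reads were recovered (100% whole within 0.05 reads). Samples were grouped by title, and gene coordinates come from GENCODE on GRCh37.

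All 8 groups entered 1 limma fit (3.58.1, R 4.3.3) of log2(CPM + 1) with a trend of the variance over the mean. Genes had to reach 1 CPM in 2 or more libraries, which left 15019. P-values were adjusted by Benjamini-Hochberg over all 15019 genes, and a call needed an adjusted p under 0.05 and a log2 change of 0.58 or more in size. Other pseudocounts (0.25 and 4 CPM), filters, TMM factors, quantile normalization, a replicate block, separate fits per line, DMSO cells as the reference, and edgeR 4.0.16 and DESeq2 1.42.0 on recovered reads were tried, as was leaving out each library. The members and gene lists were chosen with earlier results of these data known. Named relatives were those called in all 4 comparisons and up to 3 with the largest rise and fall in each. MANE Select lengths were added after the data were seen, because the merged exons of ANXA2 span 11574 bases. Promoter sequences are from RefSeq (GRCh38.p14).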

Additional observations from a re-analysis of the deposited data

Results flagged for a closer look

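The difference between IR and CR cells was unlike in Huh7 and Hep3B by an interaction test in 4 members. The difference, Huh7 minus Hep3B on the log2 scale, was 4.01 for AHNAK2 (limma adjusted p = 0.00243), -2.68 for S100A4 (0.00585), -1.28 for ANXA3 (0.0157) and -0.77 for ANXA2 (0.0298). AHNAK2 was called in opposite directions in the 2 lines, S100A4 and ANXA3 were called lower in Huh7-IR cells and not called in Hep3B cells, and ANXA2 was called in neither line. In Huh7, the AHNAK2 call was lost under 8 of 14 alternatives and the ANXA3 call under 5 of 14. The interaction of ANXA2 lost its call under 8 of 17 alternatives and that of ANXA3 under 3 of 17, while those of AHNAK2 and S100A4 held. AHNAK2 passed the filter only through its resistant libraries, which also served to choose it, and its SE may be too small.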

How the results depend on the processing

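All 7 members called between the parental lines kept that call under every alternative run. In IR against CR, 5 members were called in Huh7 and 4 in Hep3B, which became 2 and 2 without a filter. Separate fits per line gave 3 in Huh7, and edgeR gave 2 in Hep3B. Without 1 library in turn, 1 to 3 were called in Huh7, 1 to 3 in Hep3B, and 2 to 4 in the interaction. In DMSO against parental cells, the 1 call in Huh7 became 0 without a filter and in separate fits, and 0 to 1 without 1 library. The 0 calls in Hep3B became 1 in separate fits, 3 with DESeq2 and 4 at an unadjusted p. Of the relatives, 17 were called in Huh7-CR cells, 11 in separate fits and 11 to 17 without 1 library (11 without Huh7 parental replicate 2 or Huh7-CR replicate 1). In Hep3B-CR cells 14 were called, and 9 to 12 without 1 library (9 without Hep3B-CR replicate 1). The shares of all genes called under each alternative are not given here. A change of these counts particular to the listed genes and a general gain or loss of calls can therefore not be told apart. The causes were not tested.

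Replicate numbers of the titles are not said to mark a batch, and the differences between replicates 1 and 2 correlated across groups with r between -0.22 and 0.44. The correlation was above 0.1 in 13 of 28 pairs of groups, among them IR with CR in Huh7 (0.44) and in Hep3B (0.24). Pairing required it in every pair, so the numbers were not used to pair the samples, and whether some groups share a batch was not tested. With a replicate block, 5 members in Huh7 and 4 in Hep3B were called between IR and CR, and 2 instead of 0 were called in Hep3B DMSO cells (ANXA3 and S100A11). The shares of all genes called with this block are not given here either.

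Differences that changed sign were all uncalled. Without 1 library in turn, the interaction ranged from -0.21 to 0.18 for AHNAK and from -0.31 to 0.66 for S100P, which was -0.10 with edgeR and -0.13 with DESeq2. Hep3B IR against CR ranged from -0.16 to 0.99 for S100A4 and from -0.68 to 0.21 for S100A6. Huh7 DMSO against parental cells ranged from -0.81 to 0.033 for S100A6, from -0.068 to 0.43 for S100A10 and from -0.63 to 0.23 for S100A11. Hep3B DMSO against parental cells ranged from -0.11 to 0.60 for ANXA1, from -0.016 to 0.084 for S100A4, which was -0.094 with quantile normalization, and from -0.57 to 0.035 for S100P. At these depths the spread between replicate libraries, more than counting error, sets the errors. In the limma fit this spread is shared over all 8 groups. AHNAK2 had as few as 2 reads in a parental library.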
